A study of Caenorhabditis elegans with 12 samples.

Results

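The proteasome subunit genes of Caenorhabditis elegans were taken as the genes whose name begins with pas-, pbs-, rpt- or rpn-, and 33 of the 46589 genes in the deposited counts met this rule. Of these, 14 encode the core particle, with 7 alpha subunits (pas) and 7 beta subunits (pbs). The other 19 encode the cap, with 6 ATPases (rpt-1 to rpt-6), 4 further subunits of the base (rpn-1, rpn-2, rpn-10 and rpn-13) and 9 lid genes (rpn-3, rpn-5, rpn-6.1, rpn-6.2, rpn-7, rpn-8, rpn-9, rpn-11 and rpn-12). The study sequenced RNA of whole worms on day 1 of adulthood in 12 libraries, to ask how loss of a DNA glycosylase, UNG-1 for uracil or NTH-1 for oxidised pyrimidines, affects worms that carry human tau. Strain BR5270, called aggregate tau here, carries a tau form prone to aggregation, and strain BR5271, called anti-aggregate tau, carries a form that resists it; both forms are made in neurons only, under a pan-neuronal promoter. These strains and worms without tau were read on 4 backgrounds, namely ung-1 mutants and wild type at 22 °C and nth-1 mutants and wild type at 20 °C. Each of the 12 combinations had 1 library, made from a pool of worms, and the mutant alleles are not named in the sources used here.

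The proteasome degrades proteins that carry ubiquitin chains. The core particle is a barrel of stacked rings whose inner beta rings hold the cutting sites and whose outer alpha rings form the gate. The cap binds the ubiquitin chain, removes it, unfolds the protein with its ring of ATPases and feeds it into the barrel. In worms, extra copies of RPN-6.1, a lid subunit that clamps the lid to the core, raise proteasome activity and resistance to protein stress. The gene rpn-6.2 encodes a second protein of the RPN-6 kind.

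Between 15124127 and 35204808 counts were deposited per library, and the 33 genes took 0.7303% to 1.1449% of these. Single members had 477 to 16931 counts in a library, so counting error was small beside the differences between libraries. With no replicate of a combination, the spread in every test is the disagreement between backgrounds plus the noise of single libraries. The targeted gene ung-1 lay at 11.9 to 14.5 CPM (counts scaled to the library's total, with edgeR's TMM factor) in its 3 mutant libraries. The gene nth-1 lay at 5.08 CPM in nth-1 with aggregate tau, 5.06 CPM in nth-1 without tau and 11.3 CPM in the anti-aggregate library labelled nth-1, against 22.96 to 29.8 CPM in the other 9 libraries. That library partly went against its label, so the results that it decides are given with and without it. At 20 °C ung-1 lay at 28.0 CPM with aggregate tau, 49.6 CPM with anti-aggregate tau and 27.0 CPM without tau on nth-1, against 37.7, 62.3 and 62.1 CPM on wild type, so it was lower in the libraries labelled nth-1 as well.

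All 33 genes were read in every library and all 33 passed the filter on low counts. Levels are compared between genes as CPM per kilobase of exon, averaged over the 12 libraries. The core genes had a median of 280 CPM per kilobase, between 195 for pbs-2 and 395 for pas-3. The cap genes had a median of 196 CPM per kilobase, between 37.8 for rpn-6.2 and 235.07 for rpt-1. By class, the medians were 286 for the alpha ring, 273 for the beta ring, 207 for the ATPases, 196 for the lid and 141 for the other base genes. The 3 highest genes were the alpha subunits pas-3 at 395 ± 91.0, pas-5 at 369 ± 97.7 and pas-2 at 367 ± 96.2 CPM per kilobase (SD over 12 libraries). These SDs largely hold differences between libraries that the 3 genes share, so they do not measure how well the order of the genes is resolved. That order was not tested. Below rpn-2 (146 ± 24.8) and rpn-1 (145 ± 28.5), the large scaffold subunits of the base, came the ubiquitin receptor genes rpn-10 at 137 ± 20.0 and rpn-13 at 135 ± 22.7, then rpn-6.1 at 133 ± 24.4 and the ATPase gene rpt-6 at 120 ± 13.2. The order of these neighbours was not tested either. The highest and lowest gene differed 10.5-fold, or 3.30-fold when rpn-6.2 was left out. The genes lie on 5 chromosomes, with 10 on I, 8 on III, 7 on II, 5 on V and 3 on IV (WBcel235). Of the 33, 8 have a protein-coding gene on the same strand ending or starting within 500 bases upstream, against 18.1% of all 19985 protein-coding genes. Exons of 11 members overlap another gene, 10 of them on the opposite strand and pbs-7 on the same strand, so their counts may include reads of the partner; rpn-6.1 and rpn-6.2 overlap none.

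**Figure D1:**
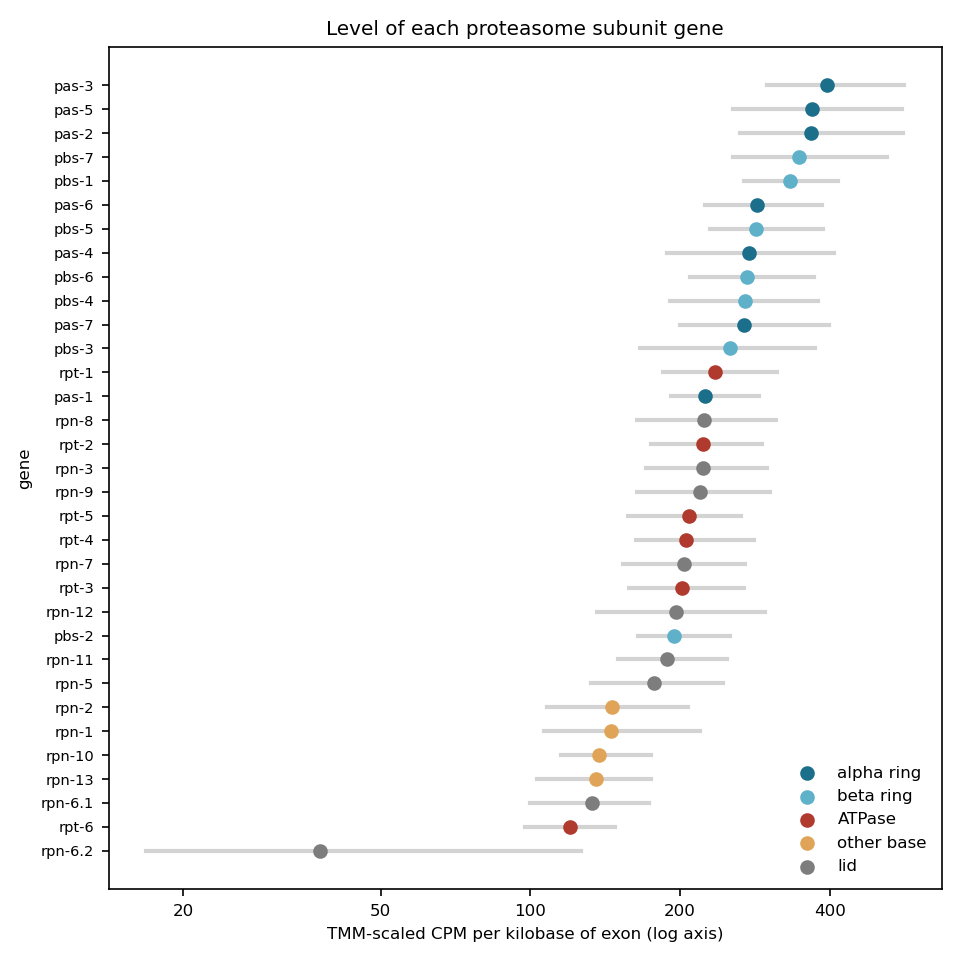
Mean level of each of the 33 genes in TMM-scaled CPM per kilobase of exon on a log axis (point) with the lowest and highest of the 12 libraries (bar), coloured by subunit class. The 12 highest means are all of core genes, rpn-6.2 has the lowest mean at 37.8 CPM per kilobase, and its bar is the longest, from 16.9 to 127.

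Apart from rpn-6.2, the genes moved up and down together from library to library. In the 32 other genes, 82.66% of the variation of log2 CPM around each gene's own mean was common to the library. The highest library of a gene was between 1.51 and 2.25 times its lowest, with pas-1 at the narrow end and pbs-3 at the wide end. The highest library was the anti-aggregate one labelled nth-1 for 13 genes, wild type with anti-aggregate tau at 20 °C for 11 and wild type without tau at 20 °C for 8. The lowest was nth-1 with aggregate tau for 13 genes, wild type with aggregate tau at 22 °C for 11, wild type with aggregate tau at 20 °C for 7 and nth-1 without tau for 1. By these counts the high end held libraries without aggregate tau, and the low end mostly libraries with it. The order did not follow tau state in every background. With aggregate tau, the median log2 deviation of the 32 genes was -0.28 and -0.24 in wild type (22 °C and 20 °C), -0.30 in nth-1 and -0.03 in ung-1. Without tau it was 0.04 and 0.43 in wild type, -0.24 in nth-1 and -0.02 in ung-1. The genes that followed the common pattern least were rpt-6, rpn-1, rpn-2 and pbs-2, whose deviations from it had SDs of 0.24, 0.22, 0.21 and 0.16 on the log2 scale. Levels in whole worms cannot tell fewer cells of a type from less RNA per cell.

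**Figure D2:**
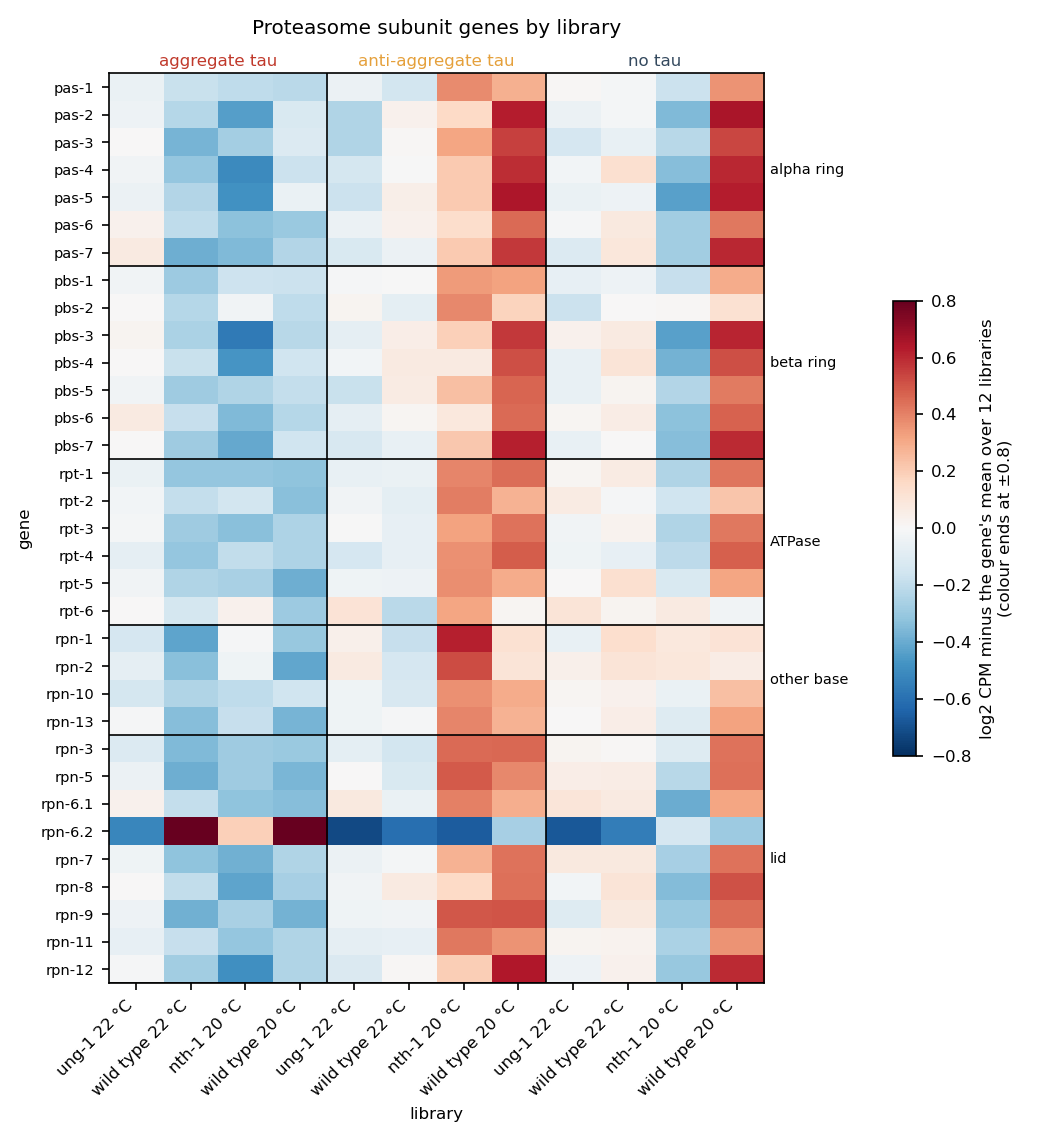
Log2 CPM of each gene in each library minus the gene's own mean over the 12 libraries (colour, ending at ±0.8), with genes grouped by subunit class and libraries by tau state. The columns share 1 colour over most genes, and the row of rpn-6.2 departs from them, high in wild type with aggregate tau at both temperatures.

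The 2 genes of the RPN-6 kind lie apart on chromosome III. The gene rpn-6.1 (F57B9.10) spans III:6959110-6962001 on the minus strand, with coding sequences of 438 and 420 codons. The gene rpn-6.2 (F59B2.5) spans III:8999817-9001999 on the minus strand, with coding sequences of 416 and 213 codons. With aggregate tau, rpn-6.2 lay at 30.1 CPM in ung-1 and 49.4 CPM in nth-1, against 197 CPM in wild type at 22 °C (95% counting interval 191 to 203, exact Poisson) and 180.2 CPM in wild type at 20 °C (174 to 187). With anti-aggregate tau it lay at 26.3 CPM in ung-1, 28.4 CPM in wild type at 22 °C, 27.3 CPM in the library labelled nth-1 and 36.0 CPM in wild type at 20 °C. Without tau it lay at 27.1 CPM in ung-1, 29.4 CPM in wild type at 22 °C, 39.5 CPM in nth-1 and 35.4 CPM in wild type at 20 °C. The 2 libraries of aggregate tau on wild type thus stood clear of the other 10, the lower of them 3.65 times the highest of the rest, which was nth-1 with aggregate tau. Intervals cover counting error only.

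The partner gene rpn-6.1 did not share this pattern. With aggregate tau it lay at 221 CPM in ung-1, 189.5 CPM in wild type at 22 °C, 173 CPM in nth-1 and 171 CPM in wild type at 20 °C. With anti-aggregate tau it lay at 228 CPM in ung-1, 208 CPM in wild type at 22 °C, 286 CPM in the library labelled nth-1 and 264 CPM in wild type at 20 °C. Without tau it lay at 231 CPM in ung-1, 227 CPM in wild type at 22 °C, 164 CPM in nth-1 and 269 CPM in wild type at 20 °C. Its libraries of aggregate tau on wild type lay within the range of the other 10. Per kilobase, rpn-6.2 made 52.4% of the summed rpn-6 level in wild type with aggregate tau at 22 °C and 52.7% at 20 °C, against 9.18% to 23.2% in the other 10 libraries. By level per kilobase it was number 7 from the lowest of the 33 genes in wild type with aggregate tau at 22 °C and number 5 at 20 °C, and the lowest of the 33 in each of the other 10.

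**Figure D3:**
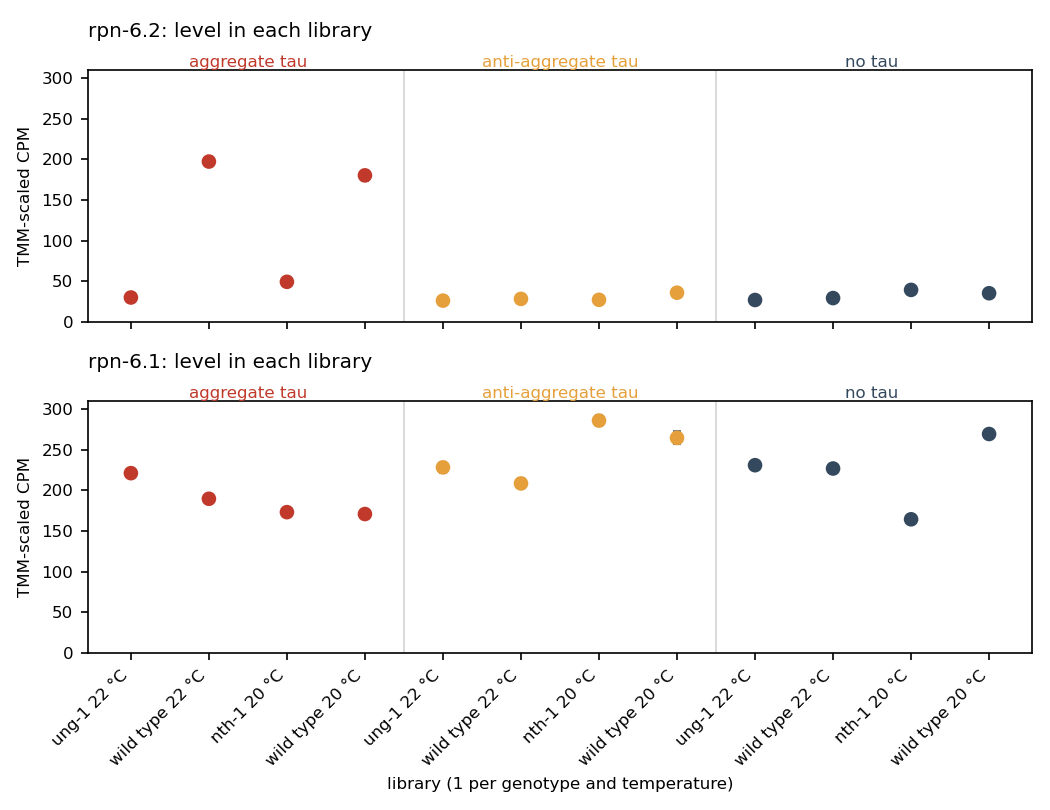
TMM-scaled CPM of rpn-6.2 (upper panel) and rpn-6.1 (lower panel) in each of the 12 libraries, 1 point per library, with 95% counting intervals that are mostly hidden by the points. In the upper panel wild type with aggregate tau stands at 197 and 180.2 CPM above 10 libraries of 26.3 to 49.4 CPM; in the lower panel all libraries lie between 164 and 286 CPM.

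On wild-type backgrounds, aggregate tau over no tau gave 1 called member, rpn-6.2, which rose by 2.55 on the log2 scale (SE 0.23, adjusted p = 0.0091, edgeR's quasi-likelihood test with Benjamini-Hochberg adjustment over 15245 genes). In this comparison 1.49% of all tested genes were called higher and 0.0197% lower. In the single pairs its log2 ratio was 2.74 at 22 °C and 2.35 at 20 °C. Its call was lost when any 1 of the 4 libraries compared was left out (2.34 to 2.77, adjusted p from 0.116 to 0.314, edgeR), where 1 library then stood for its arm. The other 32 members all had negative log2 fold changes, between -0.65 for pas-7, an alpha subunit, and -0.21 for rpt-6, and none of them was called (adjusted p from 0.118 to 0.295 by edgeR's quasi-likelihood test). The median of the 33 was -0.48 where that of all tested genes was 0.46, and 39.4% of all tested genes lay below 0. By exon length, the median of all tested genes was 0.64 between 801 and 1059 bases, the range of the core genes. It was 0.53 between 855 and 1907 bases and -0.01 between 3000 and 3400 bases, and the part of length was not tested. With library totals in place of TMM the median of all genes moved to 0.67 and that of the members to -0.28, and again 32 members lay below 0. Without wild type with aggregate tau at 20 °C the member median was -0.28, with 32 below 0. At an unadjusted p under 0.05, edgeR's test gave 19 members lower and rpn-6.2 higher, against 15.1% of all genes lower and 33.5% in either direction.

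The values of pas-7 show the size of these differences. In wild type with aggregate tau it lay at 196 CPM for 22 °C and 218 CPM for 20 °C, against 273 and 389.8 CPM in wild type without tau. For rpt-6 the values were 152 and 137 CPM with aggregate tau, against 170.2 and 164 CPM without tau. In all, 32 members were lower in both libraries of aggregate tau on wild type than in both wild-type libraries without tau, a pattern that 30.4% of all tested genes showed, and rpn-6.2 was higher in both, as were 47% of all. Against all other 10 libraries, 10 members were lower without overlap: pbs-2 of the core and rpt-1, rpt-2, rpt-4, rpn-1, rpn-2, rpn-3, rpn-5, rpn-9 and rpn-13 of the cap. This pattern was found in 5.84% of all tested genes, and the reverse, shown by rpn-6.2, in 9.64%.

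Sums over tissue marker lists differed between these libraries. For every such list, the sums in wild type with aggregate tau lay within the range of the other 10 libraries. The list of intestine and yolk went in opposite directions at the 2 temperatures. The 15 genes of the oogenic germline summed to 7547 and 7431 CPM in wild type with aggregate tau at 22 °C and 20 °C, against 11964 and 11606 CPM in wild type without tau. Over all libraries that sum was lowest in nth-1 with aggregate tau at 6133 CPM and highest in the anti-aggregate library labelled nth-1 at 14401 CPM, the same libraries that most often held the lowest and the highest level of a proteasome gene. The 8 muscle genes summed to 2834 and 3448 CPM in wild type with aggregate tau against 1350 and 1239 CPM without tau, and the 10 genes of hypodermis and cuticle to 4254 and 4072 CPM against 1137 and 1481 CPM. The 16 sperm genes summed to 164 and 199 CPM against 28.2 and 61.5 CPM, and the 10 genes of intestine and yolk to 51618 and 52601 CPM against 101973 and 41995 CPM. No list had a gene at 0 in all libraries. The part of these tissues in the lower proteasome values was not tested.

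How many members were called depended on single libraries outside the comparison, which enter it through the estimate of the spread. Without the anti-aggregate library labelled nth-1, rpn-6.2 rose by 2.55 (SE 0.17, adjusted p = 0.00178, edgeR) and 25 other members fell, 11 of the 14 core genes and 14 of the 19 cap genes (adjusted p from 0.0209 to 0.0486, edgeR). In that fit 17.3% of all 15222 tested genes were called lower and 19% higher. The members not called were rpt-2, rpt-6, rpn-10, rpn-11, pas-1, pas-5 and pbs-2. The median over the members was -0.48 with and without the library. Without the anti-aggregate ung-1 library, 13 members were called lower and rpn-6.2 higher, where 11.9% of all genes were called lower and 19.3% higher.

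**Figure D4:**
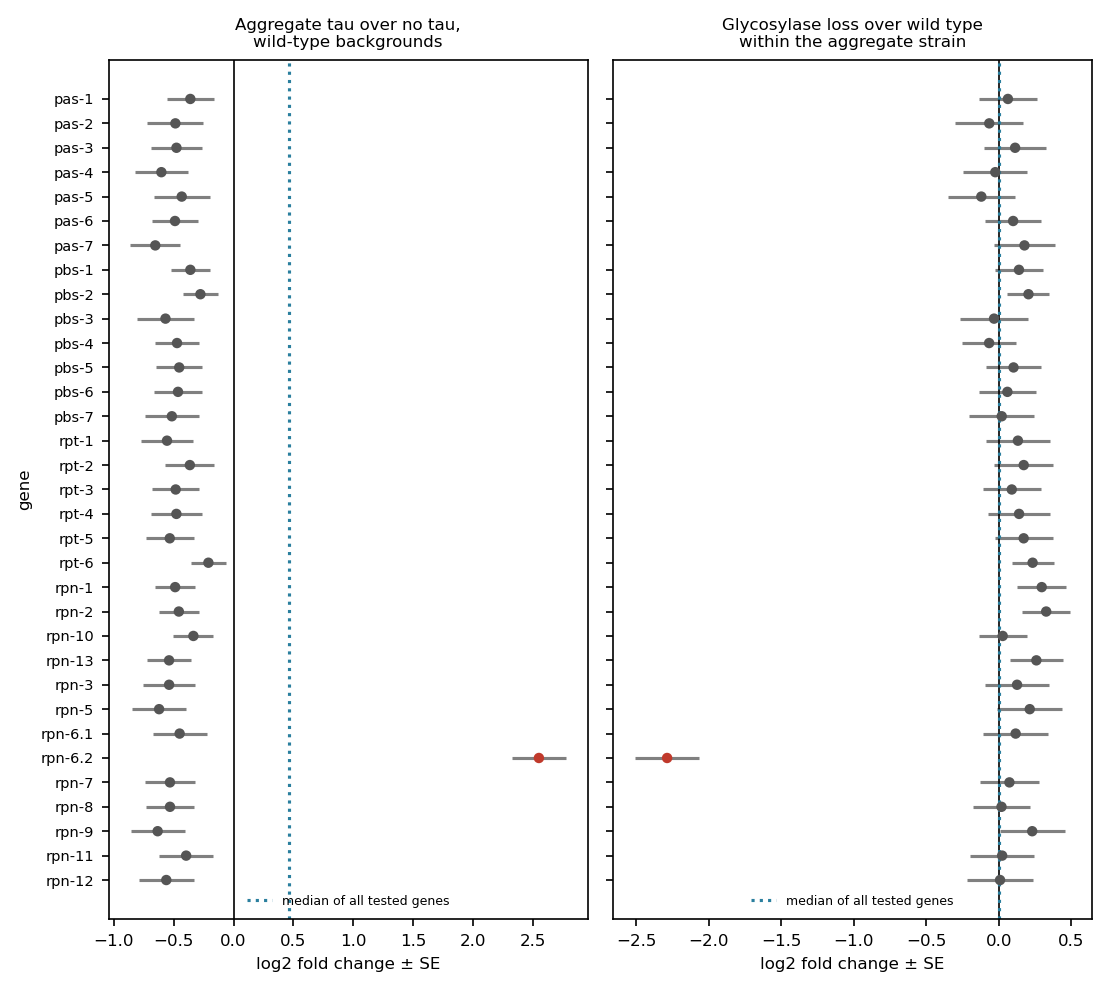
Log2 fold change ± SE of each of the 33 genes for aggregate tau over no tau on wild-type backgrounds (left) and for glycosylase loss over wild type within the aggregate strain (right), with the median of all tested genes dotted and called genes in red. On the left, 32 genes lie below 0 and rpn-6.2 at 2.55; on the right, most lie close to 0 and rpn-6.2 at -2.29.

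Within the aggregate strain, glycosylase loss over wild type gave 1 called member, again rpn-6.2, which fell by 2.29 on the log2 scale (SE 0.22, adjusted p = 0.0112, edgeR's quasi-likelihood test). Of all tested genes 0.977% were called lower and 0.00656% higher. The single pairs gave -2.71 for ung-1 at 22 °C and -1.87 for nth-1 at 20 °C. The call was lost without any 1 of the 4 libraries with aggregate tau (-2.56 to -2.07, adjusted p from 0.105 to 0.202, edgeR) and without the tau-free wild type of 22 °C or of 20 °C (-2.29 each, adjusted p = 0.0515 and 0.0513, edgeR). The same 2 libraries of aggregate tau on wild type enter this comparison and the one against no tau, so their values are not independent. The next members by size were the scaffold genes rpn-2 at 0.33 (SE 0.17, adjusted p = 0.599, edgeR) and rpn-1 at 0.30 (SE 0.17, adjusted p = 0.666, edgeR). The median of the members was 0.10 and 6 lay below 0 with TMM; with library totals the median turned to -0.14 and 30 lay below 0, so no direction is given for the group (49.7% of all genes lay below 0 with TMM). Without wild type with aggregate tau at 20 °C the median was -0.10, and without ung-1 with aggregate tau -0.08. The pairs differed too, with a member median of 0.25 for ung-1 over wild type and -0.04 for nth-1 over wild type.

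On the mutant backgrounds, aggregate tau over no tau called none of the 33 genes by edgeR, DESeq2 or limma voom, and none had an unadjusted p under 0.05, where 0% of all genes were called and 0.394% had such a p by edgeR. The median of the members was -0.04 (-0.02 for all genes), with 22 below 0 under TMM and 30 under library totals, against 52.7% of all genes under TMM, and rpn-6.2 had the highest log2 fold change at 0.24 (adjusted p = 1, edgeR). The sign of the median hung on single libraries. It was 0.12 with 2 members below 0 without tau-free ung-1, and 0.11 with 4 below 0 without nth-1 with aggregate tau. It was -0.30 without tau-free nth-1 and -0.22 without ung-1 with aggregate tau, with 32 below 0 in each. In nth-1 the counting interval of rpn-6.2 was 46.0 to 52.9 CPM with aggregate tau and 36.9 to 42.2 CPM without tau, which do not overlap. In ung-1 the intervals were 27.8 to 32.6 CPM with aggregate tau and 25.4 to 28.8 CPM without tau, which do. These intervals leave out differences between pools of worms, and each arm had 1 library, so they do not test a tau effect.

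The test of the difference between mutant and wild-type backgrounds compared aggregate tau over no tau between these backgrounds. The aggregate form came with its strain, so tau and any other trait of that strain or its libraries cannot be told apart. The same holds for every comparison of aggregate tau given here. For rpn-6.2 the difference was -2.31 (SE 0.31, adjusted p = 0.0792, edgeR), which missed the threshold; 0.0131% of all genes were called, all lower. Without the anti-aggregate library labelled nth-1 it was -2.31 (SE 0.23, adjusted p = 0.0168, edgeR), with 0.907% of genes called lower, and without the anti-aggregate ung-1 library -2.41 (adjusted p = 0.0126, edgeR; 1.26% called lower). With all libraries it passed under DESeq2 and under limma voom (adjusted p = 1.5e-07 and 0.0434), which called 2.34% and 0.177% of all genes lower. The other 32 members had positive differences under TMM and 30 of them under library totals, none called, with a median over all members of 0.46 (-0.33 for all genes, 58.8% of which lay below 0). The largest was that of pas-7 at 0.72, which with rpn-6.2 made the 2 members at an unadjusted p under 0.05, against 11.7% of all genes (edgeR). For aggregate tau over no tau on wild type the member medians were -0.30 at 22 °C and -0.68 at 20 °C, against -0.01 on ung-1 and -0.06 on nth-1.

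Over all 4 backgrounds, aggregate tau over no tau called none of the members by any of the 3 tools (0% of all genes called by edgeR). At an unadjusted p under 0.05 edgeR gave 1 member, rpn-6.2 at 1.52 (adjusted p = 0.363), against 12.3% of all genes in either direction and 5.65% lower. The remaining 32 lay below 0, as did 40.1% of all genes, down to -0.36 for rpn-5, a lid scaffold gene, with a median over the members of -0.26 (0.26 for all genes). For aggregate over anti-aggregate tau, again 0 members were called by edgeR or voom (0% of all genes by edgeR), and DESeq2 called rpn-6.2 higher, with 4.76% of all genes. At an unadjusted p under 0.05 edgeR gave 22 members, 21 of them lower, against 33.1% of all genes in either direction and 16.5% lower. The log2 fold changes ran from -0.50 for rpn-9, a lid gene, to 1.70 for rpn-6.2, with 32 below 0 against 39.7% of all genes. The median was -0.37 (0.35 for all genes), and -0.25 without the anti-aggregate library labelled nth-1. The germline sum ran from 6133 to 9519.5 CPM with aggregate tau, against 9519 to 14401 CPM with anti-aggregate tau, and its part in the result was not tested. The single pairs put most of this on the 20 °C libraries, with member medians of -0.68 on wild type and -0.59 on nth-1, against -0.24 on wild type and 0.02 on ung-1 at 22 °C.

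Anti-aggregate tau over no tau called none of the members by edgeR, DESeq2 or voom, and none had an unadjusted p under 0.05 (0% of all genes called, 1.66% with such a p and 1.26% with such a p and lower, edgeR). The member median was 0.11, and 32 lay above 0, rpn-6.2 at -0.18 being the exception, where 50.3% of all genes lay below 0. That direction rested on the nth-1 pair: without its anti-aggregate library the median was -0.02 and 21 members lay below 0, and without its tau-free library -0.04 and 28. In single pairs the member medians were 0.54 on nth-1, -0.05 on ung-1, -0.08 on wild type at 22 °C and 0.01 on wild type at 20 °C.

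The core and the cap were then set side by side in each library. With aggregate tau the summed level of the core was 3647 CPM in ung-1, 3044 CPM in wild type at 22 °C, 2883 CPM in nth-1 and 3232 CPM in wild type at 20 °C. With anti-aggregate tau it was 3374, 3658, 4273 and 5182 CPM in the same order of backgrounds, and without tau 3516, 3711, 2999 and 5175 CPM. The cap summed to 5096, 4471, 4536 and 4418 CPM with aggregate tau, to 5201, 5003, 6996 and 6712 CPM with anti-aggregate tau, and to 5318, 5494, 4771 and 6674 CPM without tau. Core and cap thus varied together, over a 1.80-fold range for the core and 1.58-fold for the cap, and both were highest in 3 libraries at 20 °C, wild type with anti-aggregate tau, wild type without tau and the anti-aggregate library labelled nth-1. The log2 ratio of core to cap counts moved less, between -0.71 and -0.37. It was -0.65 with aggregate tau, -0.71 with anti-aggregate tau and -0.67 without tau in the 3 nth-1 libraries, the lowest 3 values of the 12, against -0.45, -0.37 and -0.37 in wild type at 20 °C. In ung-1 it was -0.48, -0.62 and -0.60, against -0.55, -0.45 and -0.57 in wild type at 22 °C, which overlap.

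**Figure D5:**
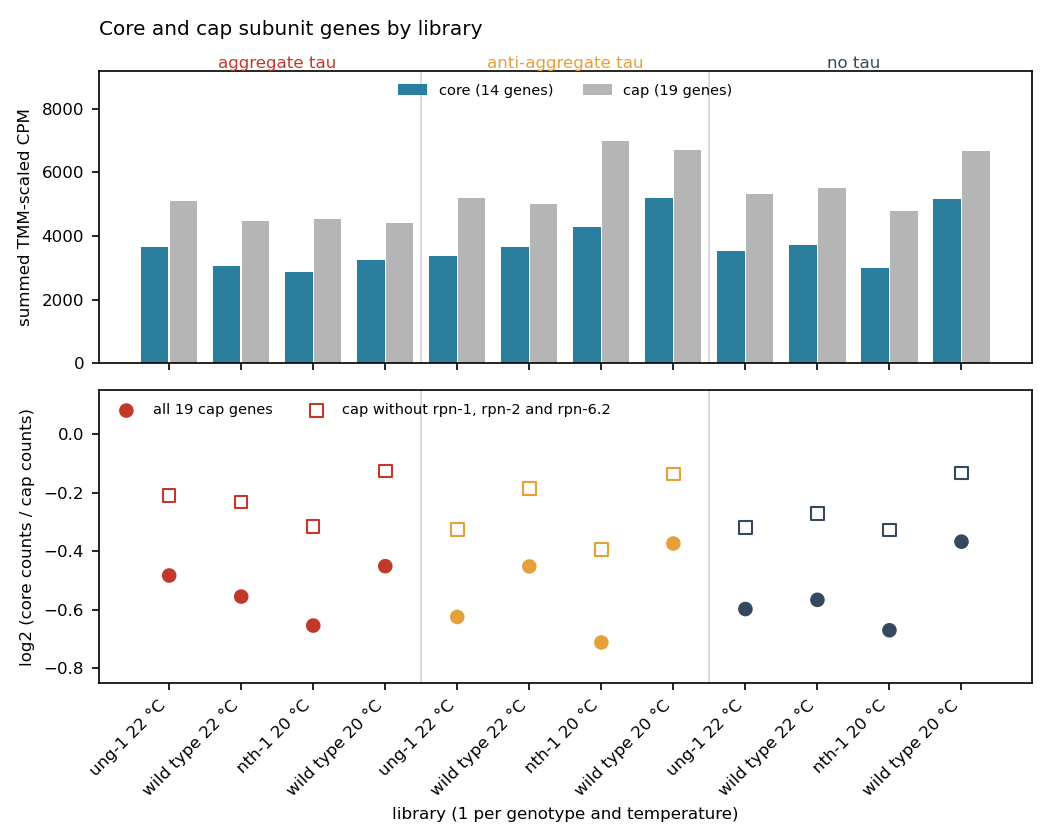
Upper panel, summed TMM-scaled CPM of the 14 core genes and the 19 cap genes in each library. Lower panel, log2 ratio of core to cap counts, with all 19 cap genes (filled) and without rpn-1, rpn-2 and rpn-6.2 (open); the 3 nth-1 libraries hold the lowest filled points, between -0.71 and -0.65, and wild type at 20 °C lies between -0.45 and -0.37.

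Over the 3 tau states, nth-1 over wild type at 20 °C called 0 of the 33 members by edgeR (0% of all genes), 0 by voom, and 4 by DESeq2, the core genes pas-2, pas-5, pbs-3 and pbs-4, all lower, where DESeq2 called 11.8% of all genes lower. At an unadjusted p under 0.05 edgeR gave 9 members, all lower, against 16.1% of all genes lower and 36.6% in either direction. The lowest adjusted p was that of pas-5, an alpha subunit gene, whose log2 fold change was -0.64 (SE 0.19, adjusted p = 0.0759, edgeR). It lay at 219 CPM with aggregate tau, 354 CPM with anti-aggregate tau and 226.5 CPM without tau in nth-1, against 295, 479 and 473 CPM in wild type at 20 °C, lower in each of the 3 pairs. The scaffold genes of the base had the highest fold changes, rpn-2 at 0.28 and rpn-1 at 0.27 (adjusted p = 0.194 and 0.258, edgeR). For rpn-1 the levels were 451, 697 and 480.0 CPM in nth-1 with aggregate tau, with anti-aggregate tau and without tau, against 368, 493 and 489.6 CPM in wild type at 20 °C, higher in 2 of the 3 pairs. By class the medians were -0.46 for the alpha ring, -0.44 for the beta ring, -0.16 for the ATPases, -0.21 for the lid and 0.11 for the other base genes, with 0.17 over all tested genes. In all, 29 members lay below 0 against 43.5% of all genes, and the lowest was rpn-6.2 at -0.67. The member median was -0.25, and leaving out 1 library moved it most for tau-free nth-1 (-0.06, with 18 below 0) and tau-free wild type at 20 °C (-0.12), and the other way for wild type with aggregate tau at 20 °C (-0.39) and the anti-aggregate library labelled nth-1 (-0.42).

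The members differ in length, and the fold changes of all tested genes differed with length. The exons of rpn-1 span 3171 bases and those of rpn-2 3166, while the core genes span 801 to 1059 bases. For nth-1 over wild type the median of all tested genes was 0.06 in the length range of the core (2007 genes), 0.15 in that of the other cap genes (855 to 1907 bases, 7194 genes) and 0.22 between 3000 and 3400 bases (419 genes). Without rpn-1, rpn-2 and rpn-6.2 the core to cap ratio of the nth-1 libraries was -0.32 with aggregate tau, -0.39 with anti-aggregate tau and -0.33 without tau, against -0.13, -0.14 and -0.13 in wild type at 20 °C, and ung-1 without aggregate tau, at -0.32 in both libraries, then lay in the nth-1 range. In the single pairs the medians of all genes in these length ranges did not keep the same order. From the core range to the longest, they were -0.03, 0.01 and 0.18 with aggregate tau and -0.10, 0 and 0.26 with anti-aggregate tau. Without tau they were 0.42, 0.46 and 0.19, where the core had a median of -0.84 and the other base genes of -0.16. The part of length in the result was not tested. Markers of other tissues also moved with nth-1. The germline sum in the libraries labelled nth-1 was 6133 CPM with aggregate tau, 14401 CPM with anti-aggregate tau and 7202 CPM without tau. In wild type at 20 °C it was 7431, 12085 and 11606 CPM. Not all genes of the list followed the sum. With aggregate tau, gld-1 (845 against 654 CPM), pgl-1 (587 against 409), pgl-3 (234 against 223) and glh-1 (739 against 424) were higher in nth-1. Without tau only glh-1 was higher (742 against 603 CPM). The other genes of the list were lower in both of these pairs. The summed level of the muscle genes was 8627 CPM with aggregate tau and 8485 CPM without tau in nth-1, against 3448 and 1239 CPM in wild type at 20 °C, and that of the sperm genes 822 and 728 CPM against 199 and 61.5 CPM. With anti-aggregate tau the muscle sum was 2020 CPM in the library labelled nth-1, against 931 CPM in wild type at 20 °C. Their part in the result was not tested, and temperature, mutated gene and set of libraries cannot be told apart across 22 °C and 20 °C.

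Without the anti-aggregate library labelled nth-1, nth-1 over wild type called 8 members lower: 6 core genes (pas-2, pas-4, pas-5, pbs-3, pbs-4 and pbs-7) and 2 lid genes (rpn-8, the partner of the deubiquitinase, and rpn-12), with adjusted p from 0.0172 to 0.0446 by edgeR, where 16.4% of all genes were called lower. The remaining pairs, which share no library, differed in size: the member median was -0.04 with aggregate tau and -0.67 without tau, and the core median -0.15 and -0.84. With anti-aggregate tau the member median was -0.12 and the core median -0.36. The core median lay below the cap median in each of the 3 pairs (cap 0.02, 0.06 and -0.61 with aggregate tau, with anti-aggregate tau and without tau).

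For ung-1 over wild type at 22 °C, none of the members was called by edgeR, DESeq2 or voom and none had an unadjusted p under 0.05, where 0% of all genes were called, 1.05% had such a p and 0.787% had such a p and were lower (edgeR). The median of the members was 0.06 with 4 below 0 by TMM (45.6% of all genes), and -0.04 with 26 below 0 by library totals, so the direction rests on the scaling. It also turned to -0.09 without ung-1 with aggregate tau (29 below 0) and to -0.01 without anti-aggregate wild type at 22 °C (19 below 0). The largest value was that of rpn-6.2 at -0.96 (adjusted p = 1, edgeR). Its single pairs were -2.71 with aggregate tau, -0.11 with anti-aggregate tau and -0.12 without tau.

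Among wild-type libraries, 22 °C over 20 °C called none of the members by the 3 tools (0% of all genes by edgeR). At an unadjusted p under 0.05 edgeR gave 4 members, all lower, against 2.33% of all genes lower and 7.52% in either direction. All 33 lay below 0, from -0.49 for pas-5 to -0.01 for rpt-6, where 47.9% of all genes did, with a median of -0.29 (0.03 for all genes) and medians of -0.34 in the core and -0.24 in the cap. With library totals 31 lay below 0. The pairs were unequal, with member medians of -0.03 with aggregate tau, -0.44 with anti-aggregate tau and -0.37 without tau. The wild-type libraries at 20 °C with anti-aggregate tau and without tau stood above all other 10 libraries for 17 members, 11 of the core and 6 of the cap. This pattern was shown by 17.5% of all genes. These libraries were not a planned group, and wild type with aggregate tau at 20 °C is left out of it. They also held the highest level of 19 of the 32 genes other than rpn-6.2, so this count is a description and does not test temperature.

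Around the proteasome, a list of 60 genes was read, drawn up mainly for its transcriptional control, assembly, ubiquitin supply and transfer, and unfolding of substrates. It also held ubiquitin hydrolase genes such as ubh-1. Subunits were taken by name only, so the list may hold subunits that bear other names. Of the listed genes, 59 passed the filter. None was called by edgeR in any of the 10 comparisons, while between 0 and 31 had an unadjusted p under 0.05, the most for aggregate over anti-aggregate tau (30 lower and 1 higher). In this comparison 16.5% of all genes were lower and 33.1% in either direction at that p. The medians of these partner genes were -0.39 for aggregate tau over no tau on wild type (54 of 59 below 0) where the proteasome genes had -0.48, -0.06 on mutant backgrounds (-0.04) and 0.31 for the difference between the backgrounds (0.46). They were -0.32 for aggregate over anti-aggregate tau (-0.37), -0.17 for nth-1 over wild type (-0.25) and -0.08 for 22 °C over 20 °C, where the proteasome genes had -0.29. In worms, SKN-1 in a form processed by DDI-1 and PNG-1 switches on proteasome genes when the proteasome is impaired. For aggregate tau over no tau on wild type, skn-1 stood at -0.40 (adjusted p = 0.138), ddi-1, a protease gene, at -0.81 (adjusted p = 0.1) and png-1 at -0.37 (adjusted p = 0.193), by edgeR. The ddi-1 level was 81.9 CPM at 22 °C and 102 CPM at 20 °C with aggregate tau, against 135 and 189 CPM without tau. Such a lower level without overlap was shown by 30.4% of all tested genes. Tau-free nth-1 at 80.4 CPM and nth-1 with aggregate tau at 71.6 CPM lay lower still, and every other library stood at 124 CPM or higher. The lowest of the 59 was npl-4.1, a cofactor gene of the CDC-48 unfoldase, at -1.07 (adjusted p = 0.123, edgeR). The highest was hecw-1, a ubiquitin ligase gene, at 3.23 (adjusted p = 0.113, edgeR), from levels of 6.09 and 6.38 CPM against 0.903 and 0.551 CPM, though nth-1 with aggregate tau and without tau lay higher still at 12.95 and 12.2 CPM. The smallest adjusted p was that of ubh-1, a ubiquitin hydrolase gene, at 1.21 (adjusted p = 0.0892, edgeR), with 42.9 and 44.1 CPM in wild type with aggregate tau, against 15.6 and 22.4 CPM in wild type without tau. On the mutants with aggregate tau ubh-1 stood at 16.2 CPM in ung-1 and 12.1 CPM in nth-1, and its fold change for glycosylase loss within the aggregate strain was -1.64 (adjusted p = 0.053, edgeR).

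The genes whose log2 CPM followed rpn-6.2 most closely over the 12 libraries, of 8891 genes that averaged 5 CPM or more, were Y39B6A.21, nas-21, M04F3.2, C35D10.8 and R05D3.3, with Pearson's r of 0.98 each; the 12 points share their libraries, and 2 libraries carry the pattern. Y39B6A.21, annotated as a pseudogene at V:19047047-19048669, stood in wild type with aggregate tau at 226 and 223 CPM (22 °C and 20 °C) and at 1.89 to 7.13 CPM in the other 10. M04F3.2 is also annotated as a pseudogene, and nas-21 encodes a protease of the astacin family. A list of 13 genes was also read for nonsense-mediated mRNA decay. It held smg-1 to smg-7, genes of the decay machinery itself, with tos-1, rpl-7A, rpl-30, rpl-12, rps-22 and ubl-1. Counts per gene do not separate transcript forms, so the list does not measure decay. It summed to 10792 and 12560 CPM in wild type with aggregate tau against 5141 to 7276 CPM in the other 10. Of the 13 genes, 7 were higher there without overlap and 2 lower, patterns shown by 9.64% and 5.84% of all tested genes. The part of these genes in the rpn-6.2 result was not tested.

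The genes next to rpn-6.2 were looked up after its values were seen. F59B2.3 starts 50 bases downstream on the same strand (III:8996898-8999766). In wild type with aggregate tau it stood at 101 and 105 CPM (22 °C and 20 °C), against 40.6 to 63.1 CPM in the other 10 libraries. It was thus higher without overlap, as were 9.64% of all tested genes. F59B2.15, which ends 54 bases upstream on the same strand, stayed at or below 3.59 CPM in every library and was not higher in wild type with aggregate tau, at 0.177 and 0.708 CPM.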

How the data were processed

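The authors deposited 1 table of raw read counts per library, whole numbers per gene with different totals. The submitters' processing notes name HISAT2, the WBcel235 genome and edgeR 3.22.5. How reads were counted, with or without strand, and on which annotation is not given in the sources used here. Groups follow the genotype label, although 3 titles at 20 °C name ung-1 where that label names nth-1. Names, exons and coordinates came from the Ensembl 115 annotation of WBcel235, which matched 45362 of 46589 identifiers; the rest held 0.229% of counts.

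Counts were tested with edgeR 4.0.16 (R 4.3.3), with TMM scaling and the default filter, which kept 15245 genes, and Benjamini-Hochberg adjustment over all of them at 0.05. One fit held background and tau state (6 residual degrees of freedom). Contrasts on wild-type or mutant backgrounds and within the aggregate strain came from a fit that added glycosylase loss by tau state (4 degrees of freedom). Log2 ratios of single libraries used a prior count of 2. Alternatives were library totals, median-of-ratios size factors, other filters, DESeq2 1.42.0, limma 3.58.1 voom, and leaving out libraries. The test was first run on simulated data. The rule for naming genes took rpn-6.1, rpn-6.2, called members, the extremes by level per kilobase and by fold change in each comparison, the 5 genes most like rpn-6.2 and called partner genes, of which there were 0. Other members, partner genes and neighbours given by name were picked after their values were seen. The members and lists were chosen with earlier results of these data known.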

Additional observations from a re-analysis of the deposited data

How the results depend on the processing

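The call of rpn-6.2 for aggregate tau over no tau on wild type, and for glycosylase loss within the aggregate strain, held under other size factors, other filters, DESeq2, limma voom and without the 3 nth-1 libraries. The difference of the tau effect between mutant and wild-type backgrounds, -2.31 and not called for rpn-6.2 as reported, was called at -2.56 with library totals, -2.40 without a filter, -2.25 with DESeq2, -2.30 with voom and -2.39 without the nth-1 libraries, 1 member each time. For aggregate tau over no tau on wild type, where 1 called member is reported, 8 were called by DESeq2 (7 lower, with 10.4% of all genes called lower) and 9 without the nth-1 libraries (8 lower, with 12.4% of all genes). For nth-1 over wild type, where 0 are reported, 3 were called lower with library totals (pas-2, pas-5 and pbs-4; 8.06% of all genes) and 4 by DESeq2 (11.8%), and for aggregate over anti-aggregate tau 1 was called higher by DESeq2 (4.76%).

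Leaving out 1 library at a time, rpn-6.2 gave 2.34 to 2.77 for aggregate tau over no tau on wild type with 0 to 26 members called, -2.56 to -2.07 for glycosylase loss within the aggregate strain with 0 to 1 called, and -2.52 to -2.09 for the difference with 0 to 1 called. The call on wild type was lost without either library of wild type with aggregate tau or either of wild type without tau (adjusted p 0.116 to 0.314, edgeR), where 1 library stood for an arm. The call within the aggregate strain was lost without any of those 4 or without either mutant with aggregate tau (0.0513 to 0.202, edgeR). For nth-1 over wild type 0 to 8 members were called, 18 to 30 lay below 0 and the member median was -0.42 to -0.06. That median ran from -0.47 to -0.14 for aggregate tau over no tau on 4 backgrounds, -0.69 to -0.28 on wild type and -0.30 to 0.12 on mutants, 0.25 to 0.68 for their difference and -0.45 to -0.17 for 22 °C over 20 °C. The range of the core to cap log2 ratio over libraries was 0.34 and became 0.31 with the mean of log2 CPM in place of the sum. The gap of rpn-6.2 between wild type with aggregate tau and the highest other library was 3.65-fold and became 4.15-fold with library totals. No result turned its direction among called genes. No paired analysis was possible because each combination has 1 library, so replicate numbers pair nothing; libraries of 1 background are already matched, since background is a term in every fit. Depth did not limit the members, but the single library per combination did.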
